A study of Mus musculus with 9 samples.

Results

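The 10 genes described here encode the G1 cyclins, their kinases and inhibitors, and the RB-E2F switch of the cell cycle: Ccnd1, Ccnd2, Ccnd3, Ccne1, Cdk4, Cdk6, Cdkn1b, Cdkn2c, Rb1 and E2f1. They were chosen by name from textbook knowledge of the pathway, with earlier results of these data known, out of 51717 genes with a matched transcript. All 10 passed the filter on low counts and were among the 13064 genes tested. B16F10 is a pigmented mouse melanoma cell line. Total RNA of 3 B16F10 lines was sequenced as mRNA libraries, with 3 libraries given as biological repeats of each line. The lines carried a non-target control, a knockdown of Sirpa or an overexpression of Sirpa, and all were cultured in the same complete medium. The product of Sirpa, SIRP alpha, is an inhibitory receptor that binds CD47.

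The labels name 1 line per condition and do not say whether a line was a clone or a pool, how the knockdown and the overexpression were made, or whether the control carries the vector of the overexpression. A difference between conditions is therefore also a difference between lines, and the p-values below reflect only how far repeats of the same line differed.

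Cells decide in G1 whether to copy their DNA. D-type cyclins bind the kinases CDK4 and CDK6, the complexes phosphorylate RB, and RB then releases E2F factors, which switch on cyclin E, E2F1 itself and the genes of DNA replication. INK4 proteins such as p18 (Cdkn2c) block CDK4 and CDK6, while CIP/KIP proteins such as p27 (Cdkn1b) and p21 (Cdkn1a) bind cyclin E-CDK2 and also dock on cyclin D complexes. In melanoma this switch is often altered through loss of the INK4 gene Cdkn2a or gain of cyclin D1 or CDK4.

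Libraries held 16.4 to 22.38 estimated counts in units of 1000000. CPM below is the count of a gene per 1000000 with scaled library sizes and serves to compare libraries for 1 gene, while TPM also divides by transcript length and serves to compare genes. Sirpa followed the labels: it was at 289.2 to 303.3 CPM in the control, 112.2 to 118.1 CPM in the knockdown and 894.9 to 913.6 CPM in the overexpression line. All 8 melanocyte markers were tested, and their summed level was 17620 to 17810 CPM in the control, 17070 to 17730 in the knockdown and 19320 to 19790 in the overexpression line, above all other libraries. The sum does not stand for each marker: Mitf, among the 8, was called lower than control in both perturbed lines, as given below. All 6 epithelial markers were listed at 0 in every library, as were 5 of 7 T and NK cell markers, Cd3e among them, 3 of 9 macrophage and myeloid markers, Ptprc among them, and 2 of 6 endothelial markers. The macrophage and myeloid sum was 1.78 to 3.25 CPM in the control, 3.69 to 4.80 in the knockdown and 2.65 to 3.67 in the overexpression line, and the endothelial sum was at most 5.39 CPM. The summed level of 8 fibroblast markers was 87.26 to 96.06 CPM in the control, 60.52 to 69.75 in the knockdown and 102.9 to 113.4 in the overexpression line. The part of these marker levels in the results below was not tested.

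Ccnd3 rose and Cdkn2c fell in both perturbed lines, Ccnd1 and E2f1 rose in the overexpression line, and both were higher there than in the knockdown. A gene was called at an adjusted p under 0.05 by the quasi-likelihood test of edgeR, adjusted by Benjamini-Hochberg over all genes tested, and every adjusted p below is from that fit unless another is named. In the knockdown line, 2 of the 10 genes were called, against 35.4% of all genes tested: Ccnd3 rose and Cdkn2c fell. In the overexpression line 5 of 10 were called, against 24.3% of all genes: Ccnd1, Ccnd2, Ccnd3 and E2f1 rose and Cdkn2c fell. In bulk RNA a change in the share of cells that express a gene and a change per cell cannot be told apart. Between the perturbed lines 4 of 10 were called, against 22.1% of all genes, with Ccnd1 and E2f1 higher and Ccnd3 and Cdkn1b lower in the overexpression line. At an unadjusted p under 0.05 the counts were 3, 6 and 5. The libraries of the lines did not overlap for 5 of 10 genes in the knockdown comparison (45.8% of all genes), 6 of 10 in the overexpression comparison (40.4%) and 7 of 10 between the perturbed lines (35.9%).

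The median size of the log2 fold change over the 10 genes, signs ignored, was 0.07 in the knockdown, 0.12 in the overexpression line and 0.11 between them, beside 0.22, 0.18 and 0.17 over all genes tested. The signed medians were 0.01, −0.03 and −0.01, beside −0.01, 0.00 and 0.00 over all genes. Leaving out overexpression replicate 3 lowered the calls of the overexpression comparison from 5 to 2, and leaving out control replicate 1 lowered them to 3.

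**Figure D1:**
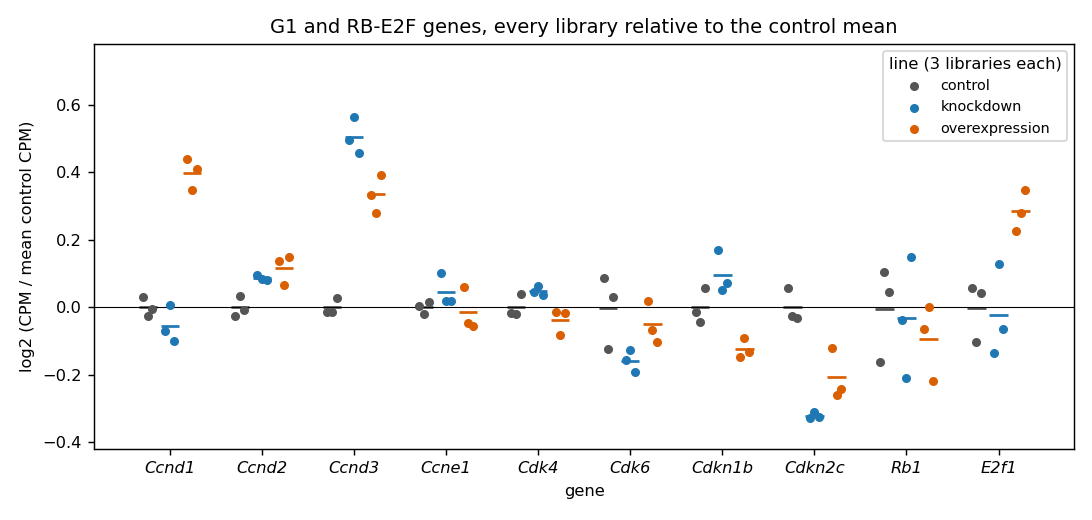
Level of each gene in each of the 9 libraries as log2 of its CPM over the mean control CPM (y axis), by gene (x axis). Points are libraries and short lines are means over the 3 libraries of a line: Ccnd3 is above the control libraries in both perturbed lines, Ccnd1 and E2f1 are above them in the overexpression line, and Cdkn2c is below them in both.

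Among the D-type cyclins, Ccnd3, which encodes cyclin D3, was called in all 3 comparisons. It was at 263.4, 263.4 and 271.1 CPM in the control libraries, 374.9, 393.3 and 364.9 in the knockdown and 335.1, 322.9 and 349.2 in the overexpression libraries. The 3 lines did not overlap, with the knockdown highest and the control lowest. Ccnd3 rose by 0.51 ± 0.04 on the log2 scale (SE) in the knockdown, 1.42-fold (adjusted p = 1.47e-07), and by 0.34 ± 0.04 in the overexpression line, 1.26-fold (adjusted p = 2.38e-05). It was lower in the overexpression line than in the knockdown line, with a log2 difference of −0.17 ± 0.04 (adjusted p = 0.00768). The last call was lost when average transcript length entered the fit (adjusted p = 0.0572), and the calls against control kept in every alternative run.

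Ccnd1, which encodes cyclin D1, set the overexpression line apart from both other lines. The gene was at 215.3, 206.9 and 209.9 CPM in the control, 200.8, 211.4 and 196.7 in the knockdown and 285.9, 268.0 and 279.6 in the overexpression libraries. Control and knockdown libraries overlapped, and every overexpression library was above all of them. The rise over control was 0.40 ± 0.04 on the log2 scale, 1.32-fold (adjusted p = 4.48e-06), and over the knockdown 0.45 ± 0.04, 1.37-fold (adjusted p = 1.17e-06), and both calls held in every alternative run. For the knockdown against control the log2 difference was −0.05, with a 95% interval of −0.15 to 0.04 (adjusted p = 0.362). LTO1, on the opposite strand, holds 22.3% of the 31-base words of Ccnd1, and the libraries do not mark strand. LTO1 was at a mean of 16.81 CPM in the control and fell by 0.57 ± 0.14 in the overexpression line (adjusted p = 0.00779). It was also lower in the knockdown, at −0.55 ± 0.14 (adjusted p = 0.00684), where Ccnd1 was not called. Fragments of the overlap cannot be assigned with certainty, and their part in the Ccnd1 values was not tested.

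Ccnd2 encodes cyclin D2. Its libraries were at 766.0, 798.7 and 775.4 CPM in the control, 833.6, 826.7 and 824.7 in the knockdown and 857.3, 815.7 and 865.3 in the overexpression line. Every library of the perturbed lines was above every control library, and the perturbed lines overlapped each other. The log2 difference from control was 0.12 ± 0.04 in the overexpression line (adjusted p = 0.0233) and 0.09 ± 0.04 in the knockdown (95% interval 0.01 to 0.16, adjusted p = 0.068). These values lie on either side of the threshold, and the difference between the lines was 0.03, with an interval of −0.04 to 0.11 (adjusted p = 0.597). The overexpression call was lost without control replicate 1 or 3 or overexpression replicate 1 or 3 (adjusted p = 0.085, 0.0891, 0.0957 and 0.112) and with average transcript length in the fit (adjusted p = 0.631). The knockdown value passed the threshold without overexpression replicate 2 (adjusted p = 0.0488), with limma-voom (0.0409) and with DESeq2 (0.0234).

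Added up per length, the D-type cyclin mRNAs reached similar totals in the perturbed lines with different compositions. The summed TPM of Ccnd1, Ccnd2 and Ccnd3 was 517.3 ± 12.1 in the control (SD, n = 3), 629.4 ± 27.5 in the knockdown and 621.1 ± 36.1 in the overexpression line. Both perturbed lines lay above the control libraries and overlapped each other. Ccnd3 made up 44.4% ± 1.19 of the sum in the control, 52.2% ± 0.63 in the knockdown and 46.4% ± 0.38 in the overexpression line. Ccnd1 made up 16.4% ± 1.09, 13.5% ± 0.09 and 18.6% ± 0.37 in the same order, with no overlap between any 2 lines. The division of Ccnd2 fragments among transcripts varied between repeats and enters these values. Ccnd2-206, of 627 bases, was at 0, 12.16 and 20.12 TPM in the control libraries. It was at 0, 23.22 and 0 in the knockdown and 0, 0 and 18.41 in the overexpression libraries. These sums and shares are descriptions over chosen genes and have no test.

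**Figure D2:**
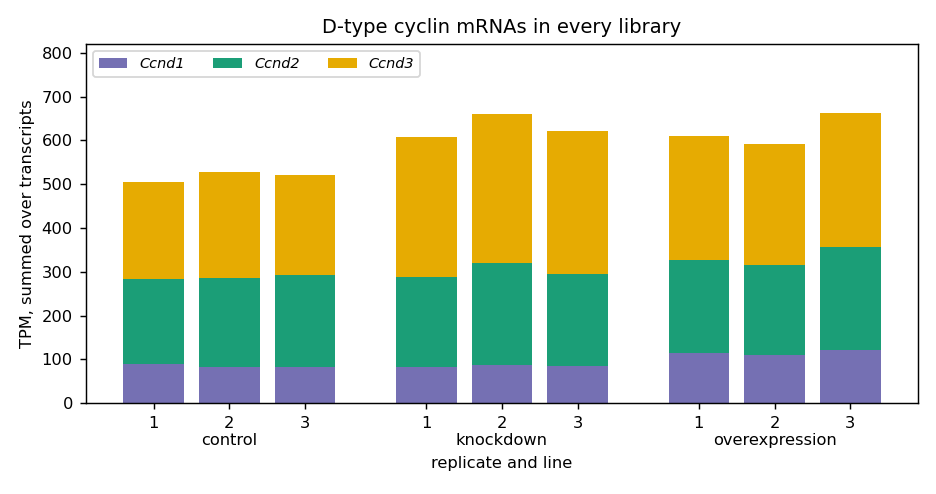
TPM of the 3 D-type cyclin genes (y axis), stacked for each of the 9 libraries (x axis, replicates 1 to 3 of each line). The stacks reach 504.0 to 527.7 TPM in the control, 607.4 to 660.3 in the knockdown and 592.4 to 661.7 in the overexpression line, with the larger Ccnd3 part in the knockdown and the larger Ccnd1 part in the overexpression line.

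Ccne1 encodes cyclin E1, the partner of CDK2 at S phase entry and a target of E2F. It was at 80.76, 79.41 and 81.37 CPM in the control, 86.3, 81.52 and 81.51 in the knockdown and 83.84, 77.85 and 77.49 in the overexpression libraries. The lowest knockdown library was just above the highest control library, and the overexpression libraries spanned the control range. No comparison was called. The log2 difference from control was 0.05 in the knockdown (95% interval −0.08 to 0.17, adjusted p = 0.581) and −0.01 in the overexpression line (−0.14 to 0.11, adjusted p = 0.899). The perturbed lines differed by −0.06 (−0.18 to 0.06, adjusted p = 0.514).

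The D cyclin kinases were not called in any comparison. Cdk4 was at 347.9, 346.6 and 361.2 CPM in the control, 362.9, 367.4 and 360.4 in the knockdown and 348.1, 332.0 and 347.6 in the overexpression libraries. The overexpression libraries lay below those of the knockdown and overlapped those of the control. The log2 difference from control was 0.05 in the knockdown (95% interval −0.03 to 0.13, adjusted p = 0.365) and −0.04 in the overexpression line (−0.12 to 0.04, adjusted p = 0.51). Between the perturbed lines it was −0.09 (−0.17 to −0.01, adjusted p = 0.119). With protein-coding transcripts alone the knockdown value was −0.11 and that between the perturbed lines 0.03, neither of them called. Tspan31, on the opposite strand, shares sequence with Cdk4 and was lower in the overexpression line than in the control by a log2 difference of −0.18 ± 0.06 (adjusted p = 0.0352), so fragments of the overlap cannot be assigned with certainty.

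How Cdk4 fragments were divided among its 9 annotated transcripts varied between repeats. The main coding transcript, Cdk4-201, held 18.6% to 54.7% of the gene's TPM, and the lowest share was in knockdown replicate 3, which had 134.3 TPM of Cdk4-201 beside 230.3 and 214.1 in the other 2 knockdown libraries. The gene's summed TPM was highest in that same library, at 720.8. TPM sums of Cdk4 are therefore not compared between lines here.

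Cdk6, the other D cyclin kinase, was at 35.17, 30.43 and 33.86 CPM in the control, 29.76, 30.35 and 28.99 in the knockdown and 33.57, 31.66 and 30.89 in the overexpression libraries. The knockdown libraries were the lowest, just below the lowest control library. The log2 difference from control was −0.16 in the knockdown (95% interval −0.33 to 0.01, adjusted p = 0.144) and −0.05 in the overexpression line (−0.22 to 0.12, adjusted p = 0.724). Between the perturbed lines, whose libraries did not overlap, it was 0.11 (−0.06 to 0.28, adjusted p = 0.38). The main transcripts of the kinases differed far more from each other than between lines: Cdk6-202 was at 3.78 ± 0.24 TPM in the control and Cdk4-201 at 216 ± 20.9 TPM (SD, n = 3). Cdk6-202 held 29.8% to 74.8% of the Cdk6 TPM over the libraries, and the Cdk6 sum was 9.46 ± 0.97 TPM in the control.

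The Cdk4 promoter is shown because CACGTG, the E-box bound by MYC, stands in it repeatedly and Cdk4 is a textbook MYC target. The sequence is from RefSeq (GRCm38.p6, chr10:127063285-127063533, plus strand), leaves out 1 annotated exon base before the RefSeq start, and has the E-boxes in capitals.

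Cdk4 promoter: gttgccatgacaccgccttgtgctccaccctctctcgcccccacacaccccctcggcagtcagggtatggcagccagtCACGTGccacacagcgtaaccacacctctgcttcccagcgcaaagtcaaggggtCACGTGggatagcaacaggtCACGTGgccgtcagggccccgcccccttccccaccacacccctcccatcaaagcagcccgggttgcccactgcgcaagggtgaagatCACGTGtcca

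The motif CACGTG, which reads the same on both strands, was found 4 times in the 250 bases before the Cdk4 start. Of 32851 windows of that length 6.02% held it at least once, and 7 windows held 4 or more. Of the 7 members with an entry in the promoter table, Cdk6 held 1 and no other member held any. Ccnd1, Ccnd2 and Rb1 had no entry. A match describes the letters in the window and says nothing of binding in these cells.

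The inhibitors moved in different ways. Cdkn2c encodes p18, an INK4 inhibitor of CDK4 and CDK6. It was at 89.22, 84.33 and 83.99 CPM in the control, 68.4, 69.15 and 68.56 in the knockdown and 78.98, 71.61 and 72.56 in the overexpression libraries. The 3 lines did not overlap, with the knockdown lowest. Cdkn2c fell by 0.32 ± 0.06 on the log2 scale in the knockdown, 1.25-fold (adjusted p = 0.000565), and by 0.21 ± 0.06 in the overexpression line, 1.15-fold (adjusted p = 0.0197). The perturbed lines differed by 0.12 (95% interval −0.01 to 0.24, adjusted p = 0.197). The overexpression call was lost without control replicate 1 (adjusted p = 0.092), overexpression replicate 2 (0.0828) or overexpression replicate 3 (0.0726), and the knockdown call was lost with average transcript length in the fit, where the change was −0.17 (adjusted p = 0.107).

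Cdkn2c has 2 annotated transcripts, and they did not move together. Cdkn2c-202 has 2471 bases, and Cdkn2c-201 has 1106 bases and starts further downstream with the same coding sequence. The long transcript was at 46.67, 44.0 and 44.2 TPM in the control, 32.87, 34.08 and 35.37 in the knockdown and 43.14, 38.36 and 41.45 in the overexpression libraries. The short transcript was at 23.22, 21.95 and 21.01 TPM in the control, 29.28, 28.92 and 26.56 in the knockdown and 17.17, 19.14 and 14.82 in the overexpression libraries. In the knockdown every library was below all control libraries for the long transcript and above them for the short transcript, while in the overexpression line both transcripts were below control. The short transcript made up 32.9% ± 0.6 of the gene's TPM in the control, 45.3% ± 2.17 in the knockdown and 29.4% ± 3.56 in the overexpression line (SD, n = 3). Shares of the overexpression and control libraries overlapped, with p = 0.4 in an exact two-sided permutation test. For the TPM of both transcripts in each comparison, and for the share in the knockdown against either other line, the same exact test gave p = 0.1, the smallest p that 3 against 3 libraries allow. A short transcript yields fewer fragments per molecule than a long one. The summed TPM of Cdkn2c ranked the lines differently from CPM, at 67.02 ± 2.51 in the control, 62.36 ± 0.57 in the knockdown and 58.03 ± 2.07 in the overexpression line. Salmon divides fragments between transcripts by model, and the short transcript rested on 152.1 to 377.2 estimated counts per library.

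**Figure D3:**
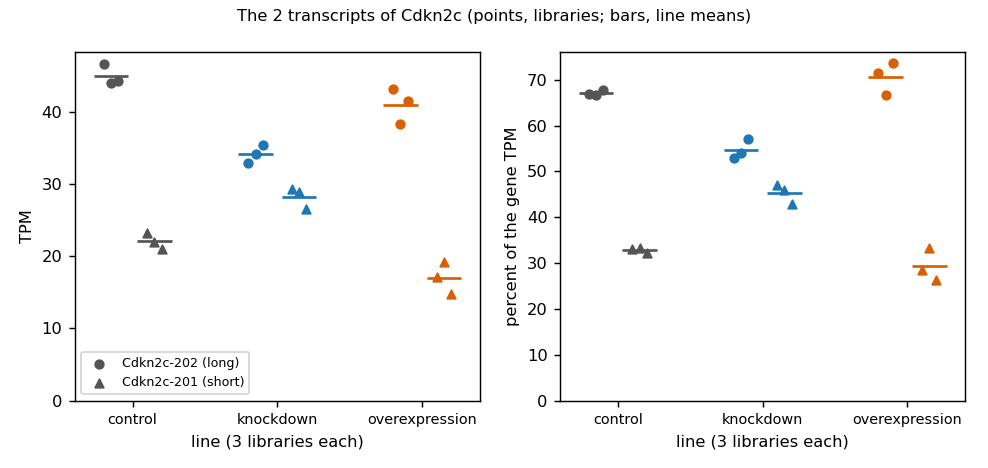
TPM of the long and short transcripts of Cdkn2c (left y axis) and the share of each in the gene's TPM in percent (right y axis) in the 3 libraries of each line (x axis), with bars at the means. In the knockdown the long transcript is below the control libraries and the short transcript above them, and the short transcript reaches a mean share of 45.3%.

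The bases before the downstream start are shown because the short transcript begins there. The sequence is from RefSeq (GRCm38.p6, chr4:109665373-109665609, minus strand), with annotated exon bases left out at its upstream end. In capitals is the match to TTTNGCG, the core of an E2F site.

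Cdkn2c downstream start: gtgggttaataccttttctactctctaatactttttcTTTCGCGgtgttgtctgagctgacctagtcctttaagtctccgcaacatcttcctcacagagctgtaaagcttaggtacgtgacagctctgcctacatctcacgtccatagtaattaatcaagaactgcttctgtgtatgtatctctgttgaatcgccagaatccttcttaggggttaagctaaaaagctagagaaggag

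TTTNGCG was searched on both strands in the 250 bases before each start, and 3.49% of the 32851 windows held it. The downstream start of Cdkn2c was the only window of the 7 members with a match. The upstream start of the same gene had none, nor had the windows of the E2F targets E2f1 and Ccne1. Here too a match describes letters and says nothing of binding, and its part in the short transcript was not tested.

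Cdkn1b encodes p27, a CIP/KIP inhibitor whose protein is known to be controlled largely by degradation. It was at 110.8, 108.5 and 116.3 CPM in the control, 125.7, 115.8 and 117.5 in the knockdown and 100.9, 104.9 and 102.0 in the overexpression libraries. The overexpression libraries were below all others, and the knockdown overlapped the control. Between the perturbed lines Cdkn1b was lower in the overexpression line by a log2 difference of −0.22 ± 0.05 (adjusted p = 0.00502). With average transcript length in the fit that value was −0.20, with an adjusted p of 0.049973, just inside the threshold. Neither comparison with control was called, with log2 differences of 0.10 in the knockdown (95% interval −0.01 to 0.21, adjusted p = 0.157) and −0.13 in the overexpression line (−0.24 to −0.02, adjusted p = 0.0939).

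Of the 5 other CDK inhibitor genes, 2 were tested. Cdkn1a, which encodes p21, rose by 0.64 ± 0.04 on the log2 scale in the knockdown (adjusted p = 3.64e-09) and by 0.45 ± 0.04 in the overexpression line (adjusted p = 3.95e-07). Cdkn2d, which encodes the INK4 protein p19, was at −0.11 ± 0.09 and 0.03 ± 0.09 and was not called. Cdkn2a and Cdkn2b, the remaining INK4 genes, had 0 counts in all 9 libraries, which allows up to 3 counts or 0.184 CPM in a library. Cdkn1c had 72 counts over the 9 libraries and was not tested. In TPM the D cyclins stood to the sum of Cdkn1a and Cdkn1b at a ratio of 1.89 ± 0.04 in the control, 1.54 ± 0.08 in the knockdown and 1.75 ± 0.11 in the overexpression line (SD, n = 3). The knockdown libraries were below the control libraries for this ratio, and the overexpression libraries overlapped them. Most of the inhibitor sum was Cdkn1a, at 214.0 TPM in the control, 342.9 in the knockdown and 298.8 in the overexpression line. Cdkn1b was at 59.3, 64.6 and 55.2 TPM in the same order. The ratio is a description over chosen genes and has no test.

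Rb1 encodes RB, the brake that D cyclin kinases release. Its repeats varied within each line, at 24.69, 29.7 and 28.49 CPM in the control, 26.92, 23.86 and 30.63 in the knockdown and 26.41, 27.66 and 23.73 in the overexpression libraries. All 3 lines overlapped. The log2 difference from control was −0.03 in the knockdown (95% interval −0.25 to 0.20, adjusted p = 0.876) and −0.09 in the overexpression line (−0.32 to 0.13, adjusted p = 0.595). From the knockdown to the overexpression line it was −0.07 (−0.29 to 0.16, adjusted p = 0.721). Rcbtb2 and Lpar6, on the opposite strand, hold 13.2% of the 31-base words of Rb1. Their mean levels in the control were 33.02 and 5.21 CPM, and neither was called in any comparison. Fragments of the overlap cannot be assigned with certainty, and their part in the Rb1 values was not tested.

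E2f1 encodes the activator E2F that RB holds. It was at 60.72, 54.32 and 60.18 CPM in the control, 53.2, 63.85 and 55.8 in the knockdown and 68.28, 70.85 and 74.28 in the overexpression libraries. Every overexpression library was above all libraries of the other lines, and control and knockdown overlapped. The rise was 0.28 ± 0.08 on the log2 scale over control, 1.22-fold (adjusted p = 0.013), and 0.31 ± 0.08 over the knockdown, 1.24-fold (adjusted p = 0.00871). The knockdown differed from control by −0.02 (95% interval −0.19 to 0.14, adjusted p = 0.862). The call against control was lost without control replicate 2 (adjusted p = 0.0648) or overexpression replicate 3 (0.06), that against the knockdown without knockdown replicate 1 (0.0516), and both with average transcript length in the fit (0.0714 and 0.064), while the fitted changes stayed between 0.24 and 0.29 on the log2 scale in those fits.

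**Figure D4:**
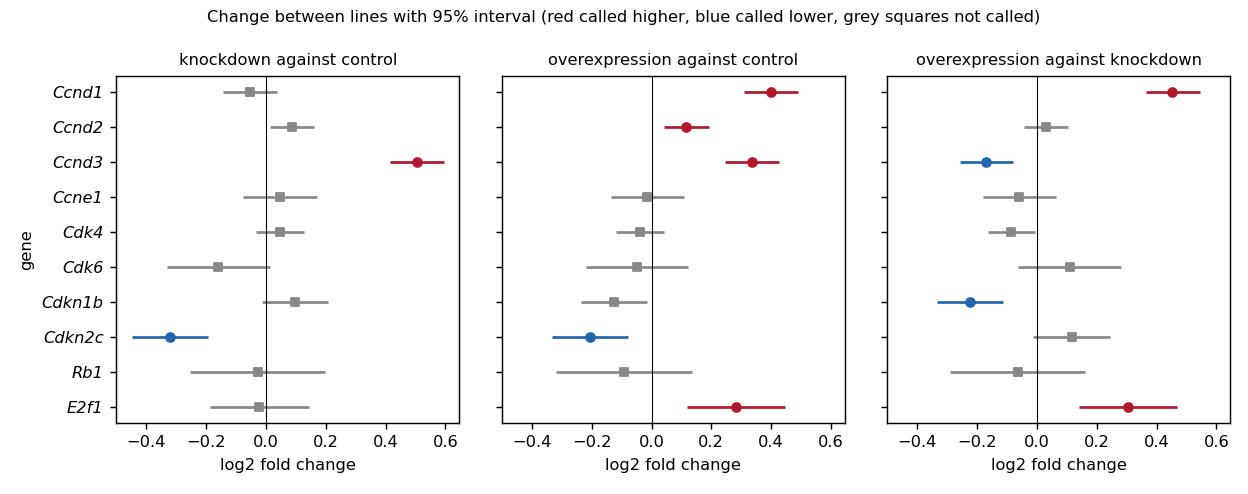
Fitted log2 fold change (x axis) of each gene (y axis) with its 95% interval in each of the 3 comparisons. Red circles were called higher, blue circles lower, and grey squares were not called: Ccnd3 at 0.51 in the knockdown and Ccnd1 at 0.40 in the overexpression line are the widest rises over control, and Cdkn2c at −0.32 in the knockdown is the widest fall.

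Per length, the order of the main transcripts in the control ran from Cdk4-201 (216 ± 20.9 TPM) and Ccnd3-205 (208 ± 4.8), which overlapped, through Ccnd2-201 (172 ± 3.35), Ccnd1-201 (81.6 ± 2.2), Ccne1-201 (63.4 ± 0.87), Cdkn2c-202 (45.0 ± 1.49), Cdkn1b-201 (37.0 ± 5.87), E2f1-202 (30.3 ± 2.09) and Rb1-201 (8.46 ± 0.83) to Cdk6-202 (3.78 ± 0.24). No other neighbours overlapped in the control. In the knockdown Ccnd3-205 stood alone at the top, at 310 ± 14.0 TPM, and Cdkn2c-202, at 34.1 ± 1.25, overlapped E2f1-202, at 30.4 ± 3.94. Ccnd3-205 was also highest in the overexpression line, at 271 ± 14.4 TPM, and E2f1-202 stood there above Cdkn1b-201, at 38.8 ± 2.99 against 31.2 ± 2.2. Sums over all transcripts of a gene placed Cdk4 and E2f1 differently. By these sums Cdk4 ranked above Ccnd3 within each line, with no overlap. The means were 449.4 against 229.8 TPM in the control, 582.1 against 328.6 in the knockdown and 476.9 against 288.1 in the overexpression line. In the knockdown E2f1 was at 33.6 ± 3.48 TPM, below Cdkn2c at 62.4 ± 0.57, with no overlap. In the overexpression line E2f1 was at 40.5 ± 2.48 TPM, below Cdkn1b at 55.2 ± 3.2, again with no overlap.

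The genes whose level over the 9 libraries was closest to that of a called gene were found among 9803 genes by Pearson's r of log2 CPM. The 9 points share 3 lines, and the values are descriptions. For Ccnd1 they were Aars (0.99), Chn2 (0.98) and Hvcn1 (0.98), for Ccnd2 Fkbp5 (0.97), Arhgef17 (0.97) and Gadd45a (0.95), and for Ccnd3 Kirrel (0.99), Sort1 (0.99) and Zfp597 (0.99). For Cdkn2c they were Tanc1 (0.98), Tspyl4 (0.97) and Prdx2 (0.97), and for E2f1 they included Slc3a2 (0.96) and Acsf3 (0.96).

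Other genes of the pathway were read from lists of textbook members. Of the 9 tested genes for other cyclins, kinases and phosphatases of G1 and S entry, Cdk2, the partner kinase of cyclins E and A, fell in the knockdown by 0.26 ± 0.04 on the log2 scale (adjusted p = 2.4e-05) and was higher in the overexpression line than in the knockdown by 0.33 ± 0.04 (adjusted p = 4.51e-06). Ccna2, which encodes cyclin A2, rose in the knockdown by 0.17 ± 0.04 (adjusted p = 0.00347) and in the overexpression line by 0.24 ± 0.04 (adjusted p = 0.000351). Cdc25a, the phosphatase that activates CDK2, rose in the overexpression line by 0.18 ± 0.06 (adjusted p = 0.0327). The remaining 7 genes were not called in the knockdown, nor were the 7 besides Ccna2 and Cdc25a in the overexpression line. Over all genes tested, 35.4% were called in the knockdown and 24.3% in the overexpression line. Without knockdown replicate 2 the count of rises in the knockdown was 3 in place of 1, and the list's 2 rises in the overexpression line became 1 without control replicate 1 or 3 or overexpression replicate 1 or 3, or with average transcript length in the fit.

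All 11 other pocket protein, E2F and DP genes were tested. The knockdown had 3 rises and 1 fall, beside 18.0% and 17.4% of all genes, and the overexpression line 2 rises and 1 fall, beside 13.1% and 11.1%. In the knockdown, Rbl2 (the pocket protein p130) rose by 0.40 ± 0.06, Tfdp2 (a DP partner of E2F) by 0.44 ± 0.09 and E2f6 (a repressor E2F) by 0.34 ± 0.07, while E2f5 (an E2F that binds pocket proteins in resting cells) fell by 0.89 ± 0.14. Against control, Tfdp1 rose in the overexpression line by 0.21 ± 0.05 and E2f8 by 0.32 ± 0.08, and E2f7 fell by 0.28 ± 0.09, a call that was lost without any of the control replicates or overexpression replicate 1 or 2. E2f8 and E2f7 encode the atypical repressors of E2F targets. Neither was called between the perturbed lines, with log2 differences of 0.19 ± 0.08 (adjusted p = 0.0873) and −0.12 ± 0.09 (adjusted p = 0.366). With average transcript length in the fit the overexpression line had 1 rise and 0 falls of this list. Rbl2, E2f6 and Tfdp2 were lower and E2f5 and Tfdp1 higher in the overexpression line than in the knockdown, beside 11.1% and 11.0% of all genes. That split of 2 higher and 3 lower was 2 and 1 without knockdown replicate 1 or 3 or overexpression replicate 1, and 1 higher without knockdown replicate 2 or overexpression replicate 2 or 3. Rbl1, E2f2, E2f3 and E2f4 were not called in any comparison, with log2 differences from control of −0.13 to 0.09. In the list of MuvB and B-MYB subunits, which act with p130 and later with FOXM1, Lin52 rose in the knockdown by 0.44 ± 0.12 (adjusted p = 0.00805). The other 5 of the 6 tested were not called there. Foxm1 is counted in this list as the gene of the partner FOXM1, which is not itself a subunit. Of all genes, 35.4% were called in the knockdown and 24.3% in the overexpression line. In the overexpression line Foxm1 rose by 0.16 ± 0.05 (adjusted p = 0.0166) and Lin37 was lower by a log2 difference of −0.40 ± 0.14 (adjusted p = 0.0413). Neither was called without control replicate 1 or overexpression replicate 3. The list had 2 rises and 0 falls without control replicate 2, 0 and 1 without control replicate 3, and 1 and 0 without overexpression replicate 2. In the knockdown it had 2 rises without control replicate 2, and 1 fall beside the rise without control replicate 3. None of the 6 was called in the knockdown with average transcript length in the fit.

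Of 14 genes that degrade or stabilise G1 proteins, all tested, 4 rose and 3 fell in the knockdown, beside 18.0% and 17.4% of all genes. Skp2, the F-box protein that targets p27, fell by 0.53 ± 0.09 (adjusted p = 0.000242) and Fzr1, the CDH1 activator of APC/C, by 0.40 ± 0.06 (adjusted p = 6.49e-05). Usp2, a deubiquitinase of cyclin D1, rose by 0.86 ± 0.13 (adjusted p = 7.61e-05), and Cul1, the scaffold of SCF ligases, by 0.26 ± 0.04 (adjusted p = 0.000131). Cul3 and Fbxw7 completed the rises and Cks1b, the cofactor of SKP2, the falls. Against control, 2 genes of the overexpression line rose and 2 fell, beside 13.1% and 11.1% of all genes: the rises were Usp2 at 0.73 ± 0.13 and Cul1 at 0.17 ± 0.04, and the falls were Fzr1 at −0.21 ± 0.06 and Ambra1, a ligase adaptor for D cyclins, at −0.19 ± 0.06. The 2 falls became 0 without control replicate 3 or overexpression replicate 3 and 1 without any other control or overexpression library, and without control replicate 2 there were 3 rises. With average transcript length in the fit 1 rose and 3 fell in the knockdown, and 1 rose and 0 fell in the overexpression line. Skp2 and Cks1b were higher in the overexpression line than in the knockdown, by 0.38 ± 0.09 (adjusted p = 0.00583) and 0.29 ± 0.07 (adjusted p = 0.00467).

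Of the 16 tested upstream regulators of D cyclins, 8 fell and 4 rose in the knockdown, beside 17.4% and 18.0% of all genes, with a median log2 fold change of −0.14 beside −0.01 over all genes. Myc fell by 0.74 ± 0.10 (adjusted p = 2.11e-05), Junb by 0.73 ± 0.10 (adjusted p = 3.44e-05) and Mitf, the melanocyte lineage factor, by 0.38 ± 0.04 (adjusted p = 1.64e-06), while Foxo4 rose by 0.51 ± 0.07 (adjusted p = 1.8e-05). The other rises were Foxo1, Foxo3 and Gsk3b. With overexpression 6 fell and 2 rose, beside 11.1% and 13.1% of all genes, with a median of −0.15. Tcf7l2, a factor of the WNT pathway, fell by 0.79 ± 0.11 (adjusted p = 9.52e-05), Jun by 0.49 ± 0.08 (adjusted p = 0.000345) and Mitf by 0.18 ± 0.04 (adjusted p = 0.00367), and Foxo1, which represses D cyclin genes, rose by 0.60 ± 0.12 (adjusted p = 0.0015), as did Gsk3b, the kinase that marks cyclin D1 for export and degradation. Between the perturbed lines 5 were higher and 4 lower in the overexpression line, beside 11.0% and 11.1% of all genes. Among them were Foxo4 at −0.45 ± 0.07 and Foxo3 at −0.37 ± 0.07, and Ctnnb1, which encodes beta-catenin, at 0.20 ± 0.03. The 4 rises of the knockdown were 2 without knockdown replicate 3. The 2 of the overexpression line were 1 without control replicate 2 or 3 or overexpression replicate 1 or 3. Between the lines the split was 3 and 3 without knockdown replicate 3 or overexpression replicate 1, 4 and 2 without knockdown replicate 1 or overexpression replicate 2, and 2 and 1 with average transcript length in the fit.

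The E2F target genes of S phase, which E2F factors are known to activate, were read in all 35 members. In the overexpression line 10 of 35 rose and 1, Pcna, fell, with 13.1% of all genes higher and 11.1% lower. The median log2 fold change was 0.07 beside 0.00 over all genes. The replication helicase gene Mcm2 rose by 0.69 ± 0.04, the ribonucleotide reductase gene Rrm2 by 0.46 ± 0.04, the mismatch repair gene Msh6 by 0.34 ± 0.05 and Mcm3 by 0.22 ± 0.04. In the knockdown 8 rose and 6 fell, beside 18.0% and 17.4% of all genes, with a median of 0.02. Mcm2 at 0.60 ± 0.04, Msh6 at 0.56 ± 0.05 and Rrm2 at 0.20 ± 0.04 were among the called rises. The part of the E2f1 level in these changes was not tested. Between the lines 12 were higher and 2 lower in the overexpression line, beside 11.0% and 11.1% of all genes, with a median log2 difference of 0.09. Among them, Rrm2, Mcm5 and the thymidine kinase gene Tk1 were higher by 0.26 ± 0.04, 0.32 ± 0.05 and 0.32 ± 0.05, and the 2 lower genes were Msh6, at −0.22 ± 0.05, and Cdca7. The 10 rises over control fell to 6 without control replicate 3, and the single fall was not called without any of control replicates 1 to 3 or overexpression replicates 1 and 3. The 12 between the lines fell to 7 without overexpression replicate 1 and to 8 without knockdown replicate 1 or 3, and the 2 lower genes became 1 without knockdown replicate 1 or 3 or overexpression replicate 2 or 3. With average transcript length in the fit the rises were 6 over control and 5 between the lines.

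The 22 G2 and M phase genes serve the later cycle phases, and all were tested. In the knockdown 3 rose: Mki67, the proliferation marker, at 0.39 ± 0.04 (adjusted p = 1.19e-06), Kif23 and Cenpf. The 3 that fell were the mitotic kinase gene Aurkb, at −0.23 ± 0.05 (adjusted p = 0.0021), Cdc25c and Plk1. Among all genes 18.0% were higher and 17.4% lower in that comparison. With overexpression Cenpe rose and 4 fell, namely Nusap1, Cdc25c, Ccnb2 and Ube2c. Between the lines 4 were lower in the overexpression line (Mki67, Kif23, Nusap1 and Bub1b) and 0 were called higher, with 1 higher without knockdown replicate 1. Among all genes the share called lower was 11.1% in both of these comparisons. The share called higher was 13.1% with overexpression and 11.0% between the lines. The 4 falls of the overexpression line were 1 without control replicate 1 or 2 or overexpression replicate 1 and 2 without overexpression replicate 3. The rise of Cenpe was not called without control replicate 1 or overexpression replicate 1 or 2, and there were 2 rises without knockdown replicate 2. The 4 lower genes between the lines were 2 without knockdown replicate 1 or overexpression replicate 1 and 6 without knockdown replicate 2. With average transcript length in the fit 1 rose and 2 fell in the knockdown, 1 rose and 0 fell in the overexpression line, and 1 was higher and 1 lower between the lines.

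**Figure D5:**
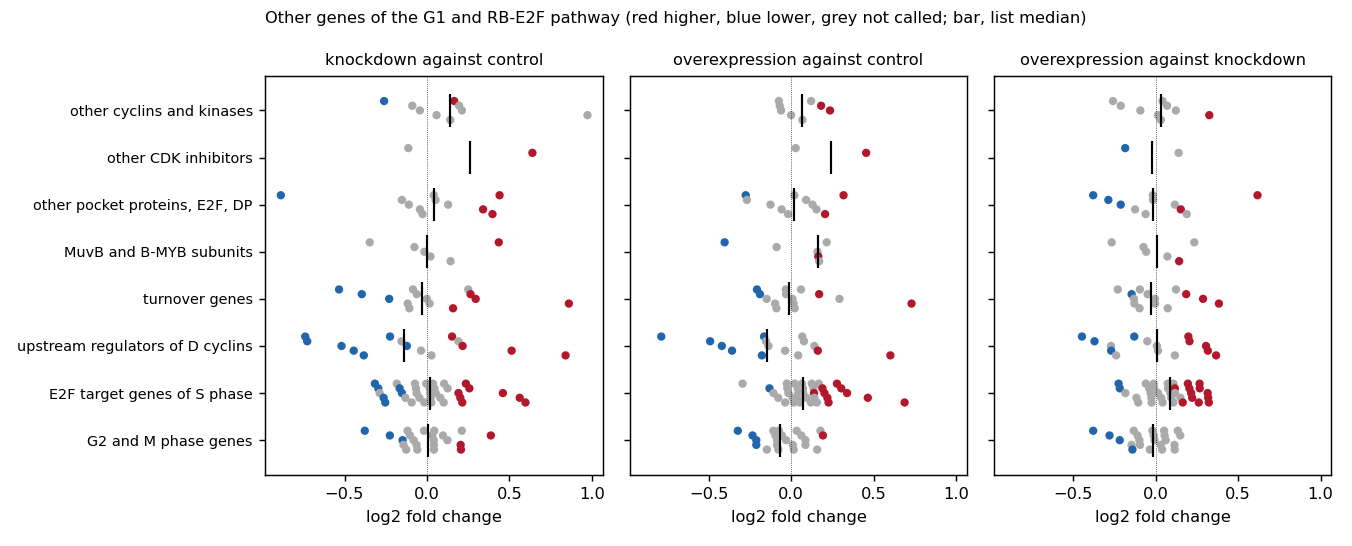
Log2 fold change (x axis) of every tested gene of 8 lists of the wider pathway (y axis) in the 3 comparisons, with red for called higher, blue for called lower, grey for not called and a black bar at the list median. Ccna1 in the overexpression line and Lef1 in all 3 comparisons lie beyond the axis and are not drawn. Lef1, an upstream regulator, was at −2.85 in the knockdown and called lower. It was at −1.73 in the overexpression line and 1.12 between the perturbed lines, and Ccna1 was at 1.005, none of them called. Red points outnumber blue ones among E2F targets in the middle and right panels, and blue outnumber red among upstream regulators in the left and middle panels.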

How the data were processed

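The members and the gene lists were chosen with earlier results of these data known. Per the file headers, the deposited tables hold 1 row per transcript with its estimated count, its TPM and its effective length. The submitters' processing notes name mm39 as the genome build, with DESeq2 1.34.0, MultiQC 1.11 and Salmon 1.4.0. Per the labels' protocols the libraries were non-directional and paired-end, with reads of 150 bases. Read trimming is not given in the sources used here.

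Transcripts were summed to genes with GENCODE M21 (GRCm38). Of 140789 transcripts 97.42% matched, and the unmatched held 0.554% to 0.654% of the counts. The deposited estimated counts were rounded and tested with edgeR 4.0.16 in R 4.3.3 (filterByExpr, TMM, quasi-likelihood, line as the only term, 9 libraries). P-values were adjusted by Benjamini-Hochberg over 13064 genes, and SE is the size of the log2 change over the root of F. The steps were tested on simulated data. Repeats differed by more than sampling noise. Intervals and floors of 3 counts do not cover line-to-line variation.

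All members were named. Each list names up to 4 genes of lowest adjusted p per comparison (every gene among CDK inhibitors and pocket protein, E2F and DP factors), and genes that overlap a member or complete a count of 5 or fewer were named after their values were seen. Alternatives used DESeq2 1.42.0, limma 3.58.1, other scalings and filters, a length offset and left-out libraries. Protein-coding transcripts alone were added after seeing the data. Cdk3 and Lin54 were not analysed here, and some genes that the naming rule selects are not reported here.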

Additional observations from a re-analysis of the deposited data

Results flagged for a closer look

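The short transcript of Cdkn2c moved in opposite directions in the perturbed lines: Cdkn2c-201 was at 22.1 TPM in the control, 28.3 TPM in the knockdown and 17.0 TPM in the overexpression line. Every knockdown library was above, and every overexpression library below, all control libraries. The main transcript of E2f1, E2f1-202, made up 93.7% of the gene's TPM in the control, 90.3% in the knockdown and 95.8% in the overexpression line, again with the libraries of the lines apart and in opposite directions. Neither difference was tested beyond the exact permutation test, which gives p = 0.1 at the least with 3 libraries against 3.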

How the results depend on the processing

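Ccnd3 in both lines and Ccnd1 in the overexpression line against control and against the knockdown kept their calls under all alternatives. Over the called values of members, 194 alternative values kept the call and 15 lost it, with 0 reversed; over the others, 344 stayed uncalled, 3 passed the threshold and 14 changed sign. With average transcript length as an offset the genes called were 2794, 1575 and 1423 (knockdown, overexpression, and between the lines), and the members called 1, 3 and 2; the common biological coefficient of variation was 0.17 in place of 0.10, and the cause was not tested. The calls lost there were Cdkn2c in the knockdown, Ccnd2 and E2f1 in the overexpression line, and Ccnd3 and E2f1 between the lines. Sign changes, all of uncalled values, came with that offset for Ccne1 (0.008) and Cdk4 (0.038) in the overexpression line and Cdkn2c between the lines (−0.082), and with protein-coding transcripts alone for Cdk4 in the knockdown (−0.11) and between the lines (0.028). Leaving out 1 library gave sign changes for E2f1 in the knockdown (−0.099 to 0.036), Rb1 in the knockdown (−0.117 to 0.058) and between the lines (−0.147 to 0.022), and Ccne1 in the overexpression line (−0.055 to 0.004). Over those 9 fits, members called ranged from 2 to 3 in the knockdown, 2 to 5 in the overexpression line and 3 to 4 between the lines, and genes called from 3885 to 4555, 2440 to 3297 and 2241 to 2867. Upper-quartile scaling moved the median of all genes in the knockdown to −0.03. Replicate numbers did not pair the samples (correlation of deviations −0.23 to 0.13 for equal numbers); the replicate block gave 4423, 2957 and 2712 genes and 2, 5 and 4 members called. Rb1 and Cdk6, with the fewest counts among the members, had the widest intervals.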
